A study of Mus musculus with 19 samples.

Results

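One day of social defeat was compared with home cage housing in the brain endothelial cells (bECs) of 7 mice, out of 19 in the series. The 3 defeated mice (CSD1) are those whose titles give 1 day of stress, and the 4 home cage mice (HC) were taken by title and source name. Defeat is a model of psychosocial stress in which a test mouse lives beside an aggressive resident behind a perforated partition that is removed for a short encounter each day. All 7 animals were male wild-type (WT) C57BL/6N mice, 8 to 10 weeks old by the methods. CSD1 mice met a CD-1 resident on 1 day, for 10 min by the labels and 5 min by the methods, and were killed 16 h later. They were not tested for behavior. By the methods, HC mice and those defeated for longer went through a social interaction and a light:dark test on the day before collection, so the absence of this testing cannot be told apart from the single defeat. Mice defeated for longer were chosen by their scores. HC mice lived in pairs on either side of a permanent partition. HC animal 5 is a home cage animal by title and source name, while its diet field reads stressed, and it was kept in HC. Each array held the RNA of cells sorted as CD31+ DRAQ5+ DAPI- from 1 perfused and dissociated brain, without cerebellum, brainstem or meninges. CD31 is also carried by platelets and some leukocytes, so the gate does not remove every other cell. The remaining 12 mice (CSD7, CSD14 and CSDrec, 4 each, after 7 days, 14 days, or 14 days and a return to the home cage) served to estimate the spread and for 1 further comparison.

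Brain endothelium forms the blood-brain barrier. It joins its cells with tight junctions, carries glucose and amino acids inward through dedicated transporters, pumps foreign compounds out and takes up little by vesicles. It is also the first brain cell to meet circulating glucocorticoids and cytokines, both of which rise in acute stress. The glucocorticoid receptor and Stat3, a transcription factor downstream of interleukin 6 type cytokines, switch on well-known target genes in endothelial cells, some of which are described here.

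The arrays were not alike in quality. Over the 65956 rows that are not controls, log2 values had a standard deviation (SD) of 1.58 and 1.54 on the arrays of HC animals 1 and 2, against 1.72 to 1.84 on the other 17. Rows for sensory receptors (olfactory, vomeronasal and taste), which brain endothelium is not known to use, set the floor of expression. Their 95th percentile was log2 3.10 over all arrays, and the 30254 rows above it are called expressed. On expressed rows CSD1 animal 4 correlated with HC animals 5 and 6 at 0.994 each, as these 2 did with one another (0.994). It correlated with CSD1 animals 18 and 19 at 0.985 and 0.987, while those 2 reached 0.996. These correlations are across genes, which are not independent replicates. CSD1 animal 4 also carries a label number between those of HC animals 2 and 5, while 18 and 19 lie outside the HC numbers. Endothelial identity was plain on all 7 arrays: 20 of 20 matched endothelial markers, among them Cldn5, Pecam1 and Cdh5, were expressed, with a mean log2 level per animal of 9.56 to 10.11.

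Against all 4 HC animals, 3852 rows were higher in CSD1 (5.84% of those tested) and 633 lower (0.96%) at adjusted p under 0.05 (limma, Benjamini-Hochberg over all rows). Among expressed rows 3803 rose (12.6%) and 17 fell (0.0562%), so the movement was nearly all upward on the deposited scale. With arrays centred on the median of expressed rows 1751 rows were higher and 17695 lower. Expressed rows as a set were shifted, but not the whole array. Their median difference was log2 0.23, while sensory receptor rows had a median of -0.15. The median level of all tested rows was 2.99 to 3.08 in HC and 2.92 to 3.05 in CSD1. Against HC animals 5 and 6 alone the expressed rows differed by a median of only 0.06, and no row passed in limma (3729 higher, 5.65%, and 2003 lower, 3.04%, at unadjusted p under 0.05). With every array set to 1 distribution the median of expressed rows was 0.03 and no row passed. The calls also needed both of the strongly moved CSD1 animals, since no row passed without CSD1 animal 18, without CSD1 animal 19, without HC animal 1 or without HC animal 2. Without HC animal 5 or 6 there were 9503 and 11302 higher rows. Each list below is therefore given with its median difference from both sets of controls, to be read against 0.23 and 0.06. Counts of risen members are to be read against the 12.6% of expressed rows, or the 17.5% of the 18616 expressed rows with 1 gene symbol, that rose. Shares close to these were those of the clock (11.8%), YAP (13.3%), leukocyte adhesion (13.6%), Wnt (14.3%), early response (18.5%) and angiogenic (20%) lists. The arterial (21.1%), matrix (21.1%), ribosomal protein (23.1%) and carrier (23.5%) lists were little above them. The counts of risen members in all of these lists say nothing particular about their members.

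**Figure D1:**
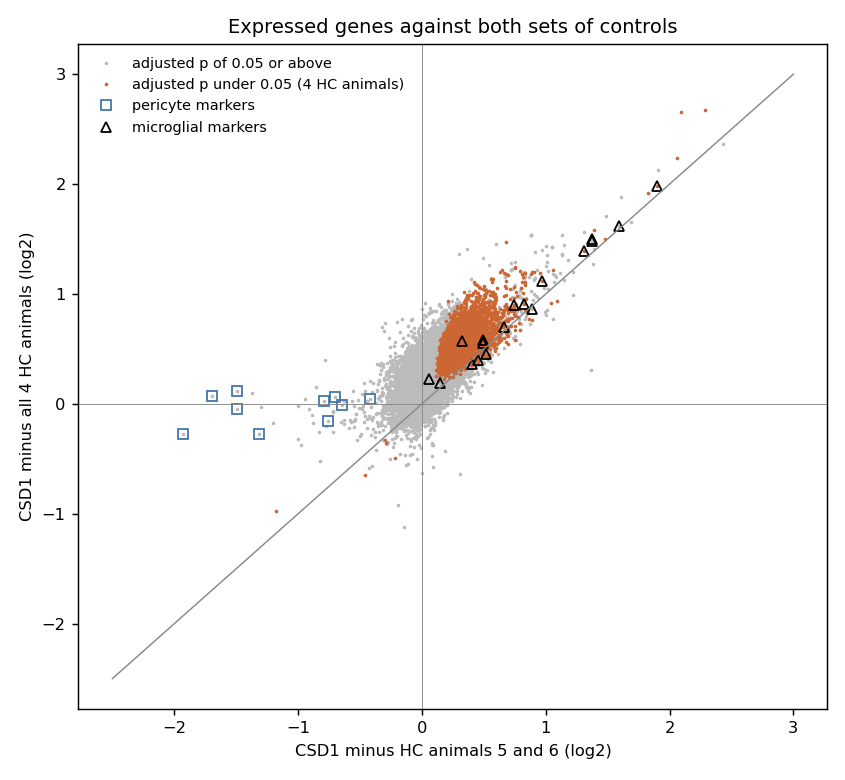
Difference of CSD1 from all 4 HC animals (vertical axis, log2) against the difference from HC animals 5 and 6 (horizontal axis, log2) for 18616 expressed genes with 1 symbol each; orange points passed against 4 HC animals, squares are pericyte markers and triangles microglial markers. Most orange points lie above the diagonal, so their rise was smaller against animals 5 and 6, while the 10 pericyte markers sit near 0 on the vertical axis and between -1.93 and -0.42 on the horizontal one.

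The animals differed in how far they had moved. Set against the mean of HC animals 5 and 6, 1644 expressed rows were at least 1.5-fold higher in CSD1 animal 18, 1017 in animal 19 and 205 in animal 4. In the other stressed groups these counts ran from 340 to 1323 an animal. HC animals 1 and 2, whose arrays had the narrower spread, had 177 and 339 such rows, and the count of CSD1 animal 4 lay between these. They also had 7038 and 8626 expressed rows at least 1.5-fold lower, against 83 in CSD1 animal 4. Their counts are therefore no measure of the range of unstressed animals. The 3803 expressed rows that had passed as higher lay above animals 5 and 6 by a median of 0.42, 0.34 and 0.13 in animals 18, 19 and 4. These rows were selected with the same animals and controls. Positive medians were therefore favoured by the selection and are no separate evidence of movement. An exact permutation test of 3 against 4 animals cannot go below a two-sided p of 0.0571, so single genes are given with limma, which borrows the spread of all 19 arrays.

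The steepest rise was that of Scgb3a1, a small secreted protein of the secretoglobin family best known from airway epithelium. Its log2 level was 4.09, 4.63, 5.19 and 5.10 in HC animals 1, 2, 5 and 6, and 5.53, 8.73 and 8.03 in CSD1 animals 4, 18 and 19. The groups did not overlap, as in 19.5% of expressed rows in this direction, and animals 18 and 19 stood far above all others. The difference was 2.68 (6.39-fold; standard error, SE, 0.48; adjusted p = 0.027) and 2.28 against animals 5 and 6. Ch25h, which makes the antiviral and signalling sterol 25-hydroxycholesterol, read 4.02, 4.47, 5.30 and 5.43 in HC and 5.07, 9.38 and 7.94 in CSD1. Animal 4 fell inside the HC range here, so the groups overlapped, and the difference of 2.65 (SE 0.63, adjusted p = 0.031) came from animals 18 and 19. The rise of Lao1, an amino acid oxidase, was 1.58 (SE 0.39, adjusted p = 0.033), and the 3 CSD1 levels were 5.31, 7.87 and 6.03 against 4.61 to 5.16 in HC.

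**Figure D2:**
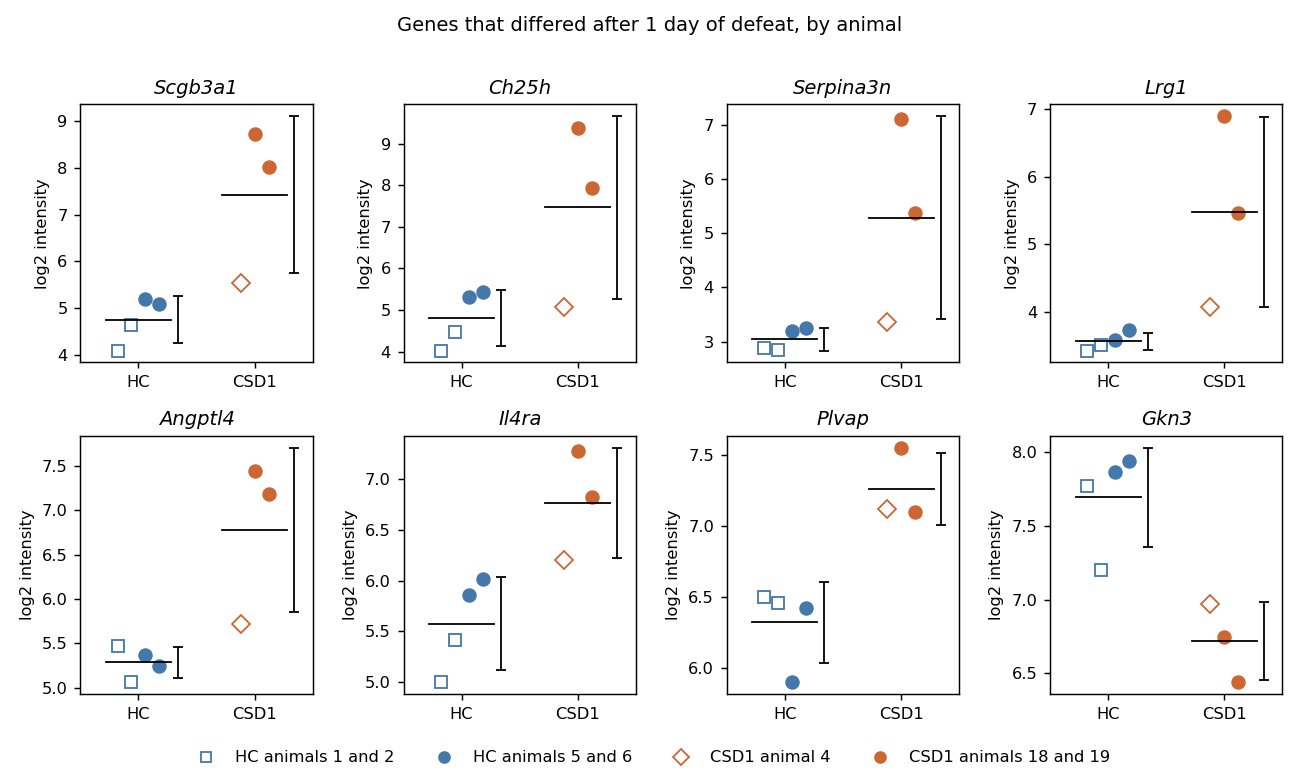
Log2 intensity of 8 genes in each HC and CSD1 animal, 1 panel a gene; horizontal lines are group means and bars the SD. In 7 panels all 3 CSD1 animals lie beyond all 4 HC animals; Ch25h is the exception, and CSD1 animal 4 is the CSD1 animal nearest to HC in every panel but that of Plvap, where animal 19 is.

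Genes that answer to cytokines rose in part. Of 23 acute-phase and cytokine-response genes with a row, 9 rose and 0 fell (39.1%, against 17.5% of expressed rows with 1 symbol; median 0.39; 0.27 against animals 5 and 6). Serpina3n, a secreted protease inhibitor of the acute-phase response, read 2.89, 2.84, 3.19 and 3.25 in HC and 3.37, 7.11 and 5.37 in CSD1. It passed from the level of receptor rows in HC to clear expression in animals 18 and 19 (difference 2.24, SE 0.62, adjusted p = 0.042). Lrg1, a secreted glycoprotein that modifies TGF-beta signalling in vessels, read 3.42 to 3.72 in HC and 4.07, 6.90 and 5.46 in CSD1 (1.92, SE 0.42, adjusted p = 0.030). On the receptor side, Il4ra, a chain shared by the receptors of interleukins 4 and 13, rose by 1.19 (HC 5.00, 5.42, 5.86 and 6.02; CSD1 6.20, 7.28 and 6.83; adjusted p = 0.027). The interleukin 6 receptor Il6ra rose by 0.82, the tumor necrosis factor receptor Tnfrsf1a by 0.96, and the transcription factor Stat3 itself by 0.55. The groups did not overlap for Il4ra, Tnfrsf1a or Stat3, while animal 4 lay below HC animal 6 for Il6ra (6.77 against 6.79). Ptgs2, the inducible prostaglandin synthase (1.46, adjusted p = 0.059), Il1r1, the interleukin 1 receptor (1.27, adjusted p = 0.072), and Lcn2, an iron-binding acute-phase protein (1.25, adjusted p = 0.063), did not pass. Nor did Socs3, the feedback inhibitor of Stat3 (0.31), or Nfkbia, the inhibitor of NF-kappaB (0.37).

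Genes known to respond to glucocorticoids rose in number: 10 of 21 passed as higher (47.6%, against 17.5%) and 0 as lower, and 20 of 21 differences were positive against both sets of controls (median 0.60; 0.44 against animals 5 and 6). The mean level of the list was 5.80 to 6.20 in HC and 6.23, 7.04 and 6.75 in CSD1 animals 4, 18 and 19, so animal 4 stood at the upper edge of HC. Angptl4, an inhibitor of lipoprotein lipase, read 5.47, 5.06, 5.37 and 5.24 in HC and 5.72, 7.44 and 7.18 in CSD1. Its difference hardly depended on the controls (1.5, SE 0.30, adjusted p = 0.027; 1.48 against animals 5 and 6). Pdk4, which shuts pyruvate out of the citric acid cycle, rose by 1.18 (adjusted p = 0.031), but animal 4 (5.11) lay below HC animals 5 and 6 (5.12 and 5.32). Map3k6, a stress-activated kinase, rose by 1.08 (HC 6.64 to 7.30; CSD1 7.44, 8.44 and 8.23; adjusted p = 0.027). Cebpd, a transcription factor of the acute-phase response, rose by 0.88 (SE 0.25, adjusted p = 0.045). The widely used reporter genes of the receptor moved less. Fkbp5, a co-chaperone that restrains the receptor, read 4.67 to 5.06 in HC and 4.88, 5.99 and 5.34 in CSD1 (0.59, adjusted p = 0.090). Tsc22d3, the glucocorticoid-induced leucine zipper, differed by 0.36 (adjusted p = 0.070) and Sgk1, a kinase that regulates ion transport, by 0.52 (adjusted p = 0.059), and neither passed. Zbtb16 was the only member with a negative difference (-0.05).

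The glucocorticoid receptor binds an inverted repeat, searched here as GNACA and TGTNC with 3 bases of any kind between them, on both strands of the 250 bases before each start site in RefSeq promoters (GRCm38.p6). It occurs in 0.387% of 32851 promoters. Of the 21 list genes 18 had a promoter, and 3 of these held the motif: Map3k6, Sgk1 and Fam107a. Among the acute-phase genes 1 of 21 with a promoter held it, Serpina3n. Of the 3 glucocorticoid list genes with the motif 1 passed as higher, against 7 of the 15 without it. In the acute-phase list 8 of the 20 without it passed. The rises were thus not limited to genes with the motif in this window. The promoters of the 2 genes with the motif that passed are printed 5′ to 3′ with the motif in capitals, to show where it lies. They are Map3k6 (chr4:133240568-133240817, plus strand) and Serpina3n (chr12:104406458-104406707, plus strand).
Map3k6: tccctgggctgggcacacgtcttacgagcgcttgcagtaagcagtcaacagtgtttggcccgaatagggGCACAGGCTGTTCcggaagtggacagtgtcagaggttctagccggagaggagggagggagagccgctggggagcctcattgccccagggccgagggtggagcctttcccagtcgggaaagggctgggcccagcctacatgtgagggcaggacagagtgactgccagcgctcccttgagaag
Serpina3n: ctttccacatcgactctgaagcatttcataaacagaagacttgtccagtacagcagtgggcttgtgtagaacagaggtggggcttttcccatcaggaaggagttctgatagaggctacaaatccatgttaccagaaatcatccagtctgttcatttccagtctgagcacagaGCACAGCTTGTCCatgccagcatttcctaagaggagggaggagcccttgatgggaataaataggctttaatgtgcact
In Map3k6 the match runs from 181 to 169 bases before the start site and in Serpina3n from 78 to 66. A match describes the letters and does not show that the receptor binds there.

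Genes of the unfolded protein and integrated stress responses, which answer misfolded protein in the endoplasmic reticulum and shortage of amino acids, were among the most often called. Of 19 members 12 rose and 0 fell, against 12.6% of all expressed rows and 17.5% of those with 1 symbol (median 0.50; 0.29 against animals 5 and 6). The sensors Ern1, Eif2ak3 and Atf6 rose by 0.75, 0.50 and 0.64, and the transcription factors Xbp1 and Atf4 by 0.81 and 0.46. Among the chaperones and folding enzymes, Pdia6, a disulfide isomerase, read 6.52, 6.76, 6.86 and 7.02 in HC and 7.15, 8.0 and 7.56 in CSD1 (0.78, SE 0.15, adjusted p = 0.027). Calr, a calcium-binding chaperone of glycoproteins, read 7.32 to 7.84 in HC and 8.06, 8.56 and 8.22 in CSD1 (0.64, SE 0.13, adjusted p = 0.027). Hspa5, the main chaperone of this compartment, rose by 0.64 (adjusted p = 0.030), with animal 4 and HC animal 6 both at 6.95. All 3 CSD1 animals were above all 4 HC animals for Pdia6 and Calr. The terminal genes of the pathway did not pass: Ddit3, a factor of cell death (0.46), Trib3 (0.33) and Chac1 (0.01). For Ern1 and Eif2ak3 the difference from animals 5 and 6 was only 0.30 and 0.21.

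The ER stress response element, CCAAT and CCACG with 9 bases of any kind between them on either strand, is the promoter sequence through which Atf6 and Xbp1 are known to act. In the 250 bases before the start it occurs in 37 of 32851 RefSeq promoters (0.113%). Of 19 list genes 18 had a promoter, and 4 held it: Hspa5, Pdia6, Calr and Hsp90b1. Of these 4, 3 passed, and Hsp90b1, the endoplasmic reticulum form of Hsp90, narrowly did not (0.47, adjusted p = 0.050). Of the 14 without the element 8 passed. The 4 promoters are printed 5′ to 3′ with the element in capitals, to show where it lies: Hspa5 (chr2:34771840-34772089, plus strand), Pdia6 (chr12:17266339-17266588, plus strand), Calr (chr8:84846932-84847181, minus strand) and Hsp90b1 (chr10:86705445-86705694, minus strand).
Hspa5: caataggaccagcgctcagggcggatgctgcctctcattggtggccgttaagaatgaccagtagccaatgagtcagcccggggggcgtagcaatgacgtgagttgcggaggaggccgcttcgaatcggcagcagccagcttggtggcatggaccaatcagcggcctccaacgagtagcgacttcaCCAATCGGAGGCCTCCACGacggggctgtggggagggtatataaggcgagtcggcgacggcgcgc
Pdia6: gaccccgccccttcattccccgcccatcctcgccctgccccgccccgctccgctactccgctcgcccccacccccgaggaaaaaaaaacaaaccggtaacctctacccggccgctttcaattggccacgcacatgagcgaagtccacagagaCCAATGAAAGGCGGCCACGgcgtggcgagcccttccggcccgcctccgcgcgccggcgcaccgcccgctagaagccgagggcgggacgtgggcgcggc
Calr: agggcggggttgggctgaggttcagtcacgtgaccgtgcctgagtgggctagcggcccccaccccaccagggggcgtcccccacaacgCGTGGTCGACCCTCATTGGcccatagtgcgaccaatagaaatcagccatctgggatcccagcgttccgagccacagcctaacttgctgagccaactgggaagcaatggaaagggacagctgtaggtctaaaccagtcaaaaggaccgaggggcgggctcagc
Hsp90b1: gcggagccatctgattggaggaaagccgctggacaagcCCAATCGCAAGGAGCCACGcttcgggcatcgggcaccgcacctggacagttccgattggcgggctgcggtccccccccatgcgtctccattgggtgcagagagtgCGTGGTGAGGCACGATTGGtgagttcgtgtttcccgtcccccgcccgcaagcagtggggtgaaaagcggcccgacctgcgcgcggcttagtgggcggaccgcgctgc
Hsp90b1 has 2 copies, 1 on each strand, and in Calr the capitals are the element read on the opposite strand. The element lies 65 to 47 bases before the start in Hspa5 and 98 to 80 in Pdia6. The rises were thus not limited to genes with the element in this window.

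Heat shock chaperones had fewer calls. Of 16 members 4 rose (25%, against 17.5% of expressed rows with 1 symbol; median 0.56; 0.28 against animals 5 and 6). These were Hspb8, a small heat shock protein (0.82), the Hsp90 co-chaperones Stip1 (0.80) and Ahsa1 (0.54), and Hspa5. Hspa5 is a chaperone of the endoplasmic reticulum and was already counted above, so its call is no separate evidence for this list. Hsph1 (0.87, adjusted p = 0.053), Hsp90aa1 (0.73, adjusted p = 0.066) and Hspa1a (0.81, adjusted p = 0.12) did not pass; Hspa1a has a near-identical copy, so its row is uncertain.

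Early response genes are transcribed within minutes of a stimulus, before new protein is made. Of 27, 5 rose and 0 fell (median 0.54; 0.31 against animals 5 and 6). Fosb, a subunit of AP-1, read 6.89, 6.38, 6.66 and 7.02 in HC and 6.96, 8.22 and 7.56 in CSD1 (0.84, adjusted p = 0.047). Animal 4 lay within HC for Fosb, and also for Zfp36, which destabilizes cytokine messages (7.40 against 7.19 to 7.62 in HC; difference 0.77, adjusted p = 0.049). Gadd45b, a stress sensor upstream of kinases (0.74), Btg2, an antiproliferative factor (0.62), and the AP-1 subunit Fosl2 (0.60) also rose. Fos (0.77, adjusted p = 0.10), Egr1 (0.76, adjusted p = 0.052), Jun (0.58, adjusted p = 0.080) and Nr4a1 (0.53, adjusted p = 0.097) did not.

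Other stress-linked lists moved little beyond the shift of all expressed rows. Among 15 YAP pathway genes 2 rose, the matrix protein gene Ccn2 (HC 6.51 to 6.85; CSD1 7.08, 7.58 and 7.55; 0.76, adjusted p = 0.029) and the YAP-binding Amotl2 (0.46), whose difference turned to -0.02 with every array set to 1 distribution. The list median was 0.31, 0.04 against animals 5 and 6 and -0.02 with 1 distribution. Of 17 clock genes 2 rose, Bhlhe40 (0.64, adjusted p = 0.039) and Per1 (0.34, adjusted p = 0.050), a glucocorticoid target as well, and Per1 turned to -0.04 with 1 distribution. The clock median was 0.31, then 0.05 against animals 5 and 6 and -0.04 with 1 distribution. Of 8 metallothionein and zinc genes 0 passed in limma. The zinc-binding Mt2 and Mt1 differed by 0.85 (adjusted p = 0.059) and 0.54 (adjusted p = 0.063).

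**Figure D3:**
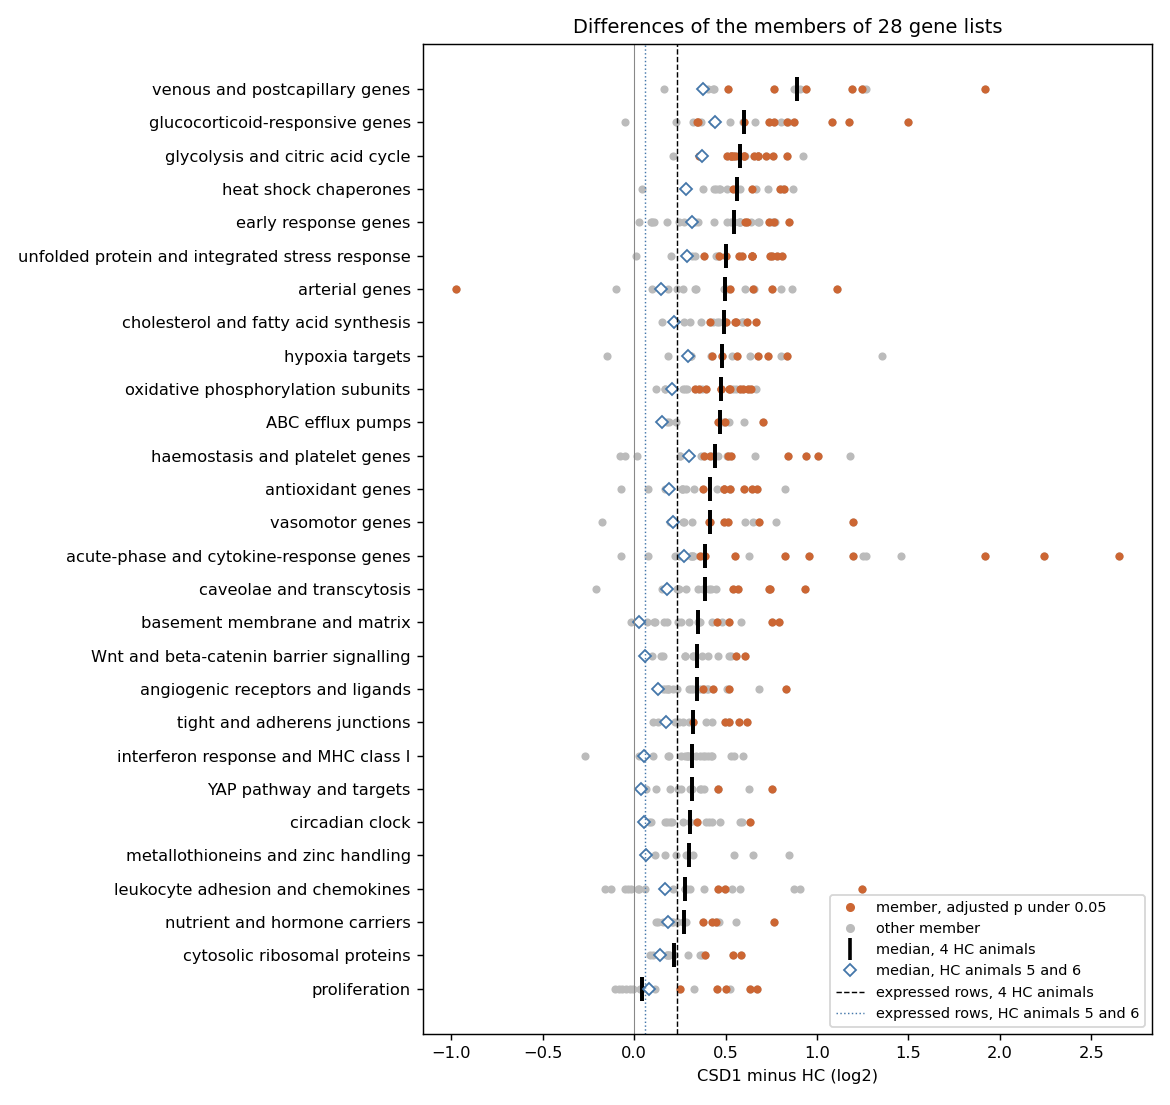
Difference CSD1 minus HC (log2) of each member of 28 gene lists, ordered by the median against 4 HC animals; the dashed and dotted lines mark the medians of all expressed rows, 0.23 and 0.06. Against animals 5 and 6 the glucocorticoid, venous and glycolysis lists have the highest medians (0.44, 0.38 and 0.37), while the matrix, YAP, clock and interferon lists lie near the dotted line.

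Energy metabolism rose broadly. Of 22 glycolysis and citric acid cycle genes 16 rose and 0 fell, the highest share among the 28 lists, and all 22 differences were positive against both sets of controls (median 0.58; 0.37 against animals 5 and 6). Cs, citrate synthase, read 7.06, 7.10, 7.28 and 7.46 in HC and 7.60, 8.13 and 8.11 in CSD1 (0.72, SE 0.12, adjusted p = 0.027). Pgk1, which yields ATP in glycolysis, rose by 0.83 (HC 6.90 to 7.53; CSD1 7.47, 8.35 and 8.38) and Idh3a, a subunit of the isocitrate dehydrogenase of mitochondria, by 0.76. Ldha, which turns pyruvate into lactate, rose by 0.68 (HC 7.00 to 7.21; CSD1 7.34, 8.08 and 7.95; adjusted p = 0.031), and the rate-setting kinases Pfkm and Pfkl by 0.68 and 0.60. Groups were apart for Cs and Ldha and touched for Pgk1. Of 22 subunits of oxidative phosphorylation 11 rose (median 0.47; 0.21), led by Ndufs1 of complex I (0.64) and Cox5a of complex IV (0.62).

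Of 19 hypoxia targets 6 rose (median 0.48; 0.30 against animals 5 and 6), and 2 of these, Pgk1 and Ldha, are glycolysis genes. Bnip3, a mitophagy receptor, rose by 0.73 and the oxygen sensor Egln1 by 0.56. Adm, the vasodilator peptide adrenomedullin, had the largest difference of the list without passing (1.36, adjusted p = 0.050). Vegfa did not pass (0.31). Among 18 antioxidant genes 7 rose (median 0.41; 0.19), led by Txnip, an inhibitor of thioredoxin (0.67), Gpx1, glutathione peroxidase (0.64), and Hmox1, heme oxygenase (0.60). Txnip differed more from animals 5 and 6 (0.76) than from all 4. Of 17 genes of sterol and fatty acid synthesis 6 rose (median 0.49; 0.22), among them the regulator Srebf2 (0.62) and the enzyme Sc5d (0.66). Of 13 ribosomal proteins 3 rose, Rpl27 (0.59), Rpl8 (0.54) and Rplp0 (0.39), while the median of 0.22 turned to -0.18 with every array set to 1 distribution and to -0.04 with arrays centred on expressed rows. Of 17 proliferation genes 5 rose, all of DNA replication: the helicase subunits Mcm2, Mcm3 and Mcm6 (0.50, 0.63 and 0.67), Pcna, the clamp that holds DNA polymerase (0.45), and Tyms, thymidylate synthase (0.25). The median of the list was 0.04, and 9 of its 17 genes were expressed.

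Barrier genes were not lower after 1 day. Of 16 junction genes 5 rose and 0 fell (median 0.32; 0.17 against animals 5 and 6). Cldn5, the main claudin of this barrier, read 10.35, 10.19, 10.42 and 10.37 in HC and 10.55, 11.11 and 10.89 in CSD1, without overlap (0.52, SE 0.15, adjusted p = 0.047). The tricellular junction protein Lsr (0.62), the polarity protein Pard3 (0.57) and the adhesion molecules F11r (0.50) and Esam (0.32) also rose. Of 17 carriers 4 rose: Slc2a1, the glucose transporter (HC 11.91 to 12.15; CSD1 12.26, 12.59 and 12.50; 0.43, adjusted p = 0.027), the amino acid carriers Slc38a5 (0.76) and Slc7a1 (0.38), and Slc3a2, the partner chain of several of them (0.45). Slc7a8, a neutral amino acid exchanger named for the size of its change, rose by 1.16 (HC 3.88 to 4.68; CSD1 4.69, 5.76 and 5.88). Of 10 ABC pumps 3 rose, Abca3 (0.71), Abcc4 (0.50) and Abcc1 (0.46). The carrier and pump medians against animals 5 and 6 were 0.19 and 0.15. Of 14 Wnt pathway genes 2 rose, a share near that of all expressed rows (12.6%), the co-receptor Lrp5 (0.56) and Reck, which presents Wnt7 ligands (0.61); the list median of 0.34 was 0.06 against animals 5 and 6 and turned to -0.04 with 1 distribution.

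Of 17 genes for caveolae and vesicle transport 5 rose (median 0.39; 0.18). Plvap forms the diaphragms of fenestrae and is scarce in the mature barrier. It read 6.5, 6.46, 5.90 and 6.42 in HC and 7.12, 7.55 and 7.10 in CSD1, so that the CSD1 animals lay together and apart from HC. The difference was 0.93 (SE 0.22, adjusted p = 0.031) and 1.09 against animals 5 and 6, and Plvap was one of few leading genes in which animal 4 moved as far as animal 19. Cavin3, a coat protein of caveolae, rose by 0.74, and the membrane-bending Ehd2, Ehd1 and Pacsin2 by 0.74, 0.57 and 0.54.

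The vascular bed runs from arterial to venous endothelium, with its own genes at each end. Of 14 venous and postcapillary genes 6 rose (median 0.89; 0.38 against animals 5 and 6). Beside Lrg1 these were Ackr1, a chemokine-binding receptor of venules (1.25; HC 2.79, 2.95, 3.71 and 4.01; CSD1 3.52, 5.67 and 4.64), Tmem252 (1.19), Vwf (0.94), Slc38a5 and the ephrin receptor Ephb4 (0.51). Animal 4 lay within HC for Ackr1, Tmem252 and Vwf. The cell adhesion molecules Vcam1 (0.91, adjusted p = 0.11) and Icam1 (0.87, adjusted p = 0.069) did not pass and differed from animals 5 and 6 by 0.31 and 0.24. The venous identity factor Nr2f2 had a difference of 0.44, and -0.05 from animals 5 and 6. Whether the 2 ends of the vascular bed differed from one another was not tested.

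Of 19 arterial genes 4 rose and 1 fell. Stmn2 had the largest rise (HC 6.73 to 7.60; CSD1 7.79, 8.77 and 8.20; 1.11, adjusted p = 0.028); it is also a neuronal gene, and the other 12 neuronal markers did not pass. Sema3g, a secreted semaphorin (0.75), and the Notch pathway genes Jag1 (0.65) and Notch4 (0.52) rose as well. The gene that fell was Gkn3, a secreted protein of the gastrokine family that marks arterial bECs in mice. It read 7.77, 7.20, 7.87 and 7.94 in HC and 6.97, 6.75 and 6.44 in CSD1, and all 3 defeated animals, animal 4 included, lay below all home cage animals, which held for 0.582% of expressed rows. The difference was -0.97 (SE 0.28, adjusted p = 0.045) and -1.18 against animals 5 and 6. Gkn3 was the largest fall among named genes that passed without overlap of the groups. Gja5, Hey1 and Dll4, other arterial genes, had differences of 0.24, 0.27 and 0.18 and did not pass.

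Among genes of blood flow and clotting, 7 of 18 in haemostasis rose (median 0.44; 0.30 against animals 5 and 6). P2ry1, an ADP receptor, rose by 1.01 (HC 3.99 to 5.31; CSD1 5.21, 6.32 and 5.71), Vwf, which binds platelets, by 0.94 (HC 7.31 to 8.21; CSD1 7.95, 9.20 and 8.78), and Anxa2, a surface receptor for plasminogen activation, by 0.84 (HC 7.00 to 7.41; CSD1 7.52, 8.45 and 8.18; adjusted p = 0.027). The groups were apart for Anxa2 alone of these 3. Of 15 vasomotor genes 6 rose (median 0.41; 0.21), led by Ace, which makes angiotensin II. It read 6.48, 6.09, 6.80 and 7.02 in HC and 6.79, 8.97 and 7.63 in CSD1 (1.20, adjusted p = 0.044), with animal 4 inside the HC range. Nos3, endothelial nitric oxide synthase, rose by 0.51 and Ece1, which activates endothelin, by 0.41. Of 20 angiogenic genes 4 rose, close to the 17.5% of expressed rows with 1 symbol (median 0.34; 0.13): Esm1, a product of tip cells (0.83), the receptors Flt4 (0.52) and Acvrl1 (0.43), and Robo4 (0.38). Kdr and Tek, the receptors of VEGF and angiopoietins, differed by 0.18 and 0.23, and the sign of both turned with arrays centred on expressed rows. Of 19 matrix genes 4 rose, Col4a1 (0.79), Col4a2 (0.75), Lamb2 (0.52) and Sparc (0.45), while the median was 0.35 and 0.03 against animals 5 and 6. Of 23 genes taken from those that the study names in its text 20 had a row, and 6 of these rose: Slc2a1, Cldn5, Vwf, P2ry1, Anxa2 and Fermt3. Slc2a1 and Cldn5 are known markers of brain endothelium, for which the study reports no significant difference between conditions. Genes that the study picked from these samples are no independent evidence.

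Genes for the recruitment of leukocytes and for interferon stayed near the shift of all expressed rows. Of 22 adhesion and chemokine genes 3 rose, Ackr1, F11r and Icam2 (0.46, which turned to -0.01 with every array set to 1 distribution). The chemokines Ccl2, Ccl12, Ccl24 and Cxcl2 had differences of -0.02, 0.02, -0.04 and 0.17 from HC and did not pass; those signs depend on the scaling or the animals included. Of 21 interferon and MHC class I genes 0 passed in limma (median 0.32; 0.06 against animals 5 and 6; -0.03 with 1 distribution).

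Among the marker lists of other cells, only the microglial list and the neuronal list, through Stmn2, had calls. Microglial, choroid plexus and astrocyte levels were raised mainly in CSD1 animals 18 and 19, while animal 4 stayed closer to HC. The arrays read RNA of a sorted population, in which more or fewer cells of a type and more or less RNA per cell cannot be told apart. Of 18 microglial markers 5 rose and 0 fell (27.8%, against 17.5% of expressed rows with 1 symbol). All 18 differences were positive (median 0.78; 0.70 against animals 5 and 6). C1qb, a chain of complement C1q, read 4.92, 4.89, 5.22 and 4.92 in HC and 5.45, 7.44 and 8.03 in CSD1 (1.98, SE 0.56, adjusted p = 0.045). The fractalkine receptor Cx3cr1 read 4.15 to 4.38 in HC and 4.48, 5.94 and 6.54 in CSD1 (1.39, adjusted p = 0.045). C1qa (1.12), C1qc (0.91) and the lysosomal protein Laptm5 (0.90) also rose. Over the 18 markers the mean level was 3.96 to 4.16 in HC and 4.28, 5.13 and 5.45 in animals 4, 18 and 19. In contrast to the acute-phase genes, animal 19 was higher than animal 18. P2ry12 and Tmem119, 2 of the most specific markers, differed by 0.46 and 0.36 and did not pass. Of 11 border macrophage markers 0 passed (mean level 3.27 to 3.52 in HC and 3.53 to 3.57 in CSD1).

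Choroid plexus and ependymal markers behaved alike. Ttr, the thyroxine carrier of the choroid plexus, read 7.86, 6.6, 7.48 and 6.71 in HC and 7.83, 10.88 and 9.89 in CSD1 (2.37, adjusted p = 0.056), and 0 of the 7 markers passed in limma. Their mean level was 3.96 to 4.04 in HC and 4.19, 5.88 and 5.50 in animals 4, 18 and 19. Astrocyte markers were at 3.78 to 4.05 in HC and 4.11, 4.52 and 5.04 in animals 4, 18 and 19, and 0 of 10 passed. Slc1a2, the glutamate transporter (1.30, adjusted p = 0.17), and Aldoc, a brain aldolase (1.20, adjusted p = 0.17), had the largest differences. The part of these cells in the rises of Serpina3n, which astrocytes also express, of Scgb3a1 and of Ch25h was not tested. Animals 18 and 19 are the ones in which these 3 genes, the microglial and the choroid markers were all high.

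Pericyte markers depended on the controls. Over 10 genes the mean level was 4.38 and 4.39 in HC animals 1 and 2, but 6.64 and 6.45 in animals 5 and 6, and 6.01, 4.95 and 5.30 in CSD1 animals 4, 18 and 19. The CSD1 animals thus lay between the 2 pairs of HC animals. Against all 4 the median was 0.01, and 0 of 10 passed. Against animals 5 and 6 all 10 were lower (median -1.05), from Atp13a5 (-1.93; 7.27 and 7.10 in HC, 6.20, 4.49 and 5.07 in CSD1) and Abcc9, a potassium channel subunit (-1.70), to Cspg4 (-0.42), and 0 of 10 passed after adjustment. Without CSD1 animal 4, a setting chosen after seeing the data, 8 of the 10 passed as lower against animals 5 and 6, and no other list had a member that did. Pdgfrb, the receptor that recruits pericytes, read 4.30 and 4.26, then 7.34 and 6.99 in HC, and 6.45, 5.01 and 5.57 in CSD1. Smooth muscle markers were at 3.95 and 4.01 in HC animals 1 and 2, at 4.92 and 5.00 in animals 5 and 6, and at 4.80 to 4.84 in CSD1; 0 of 7 passed. Fibroblast, oligodendrocyte, lymphocyte, monocyte and neutrophil, and red cell and platelet lists had 0 calls each. The mean level of the oligodendrocyte list was 3.55 to 3.71 and that of the lymphocyte list 2.99 to 3.19 on these 7 arrays.

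**Figure D4:**
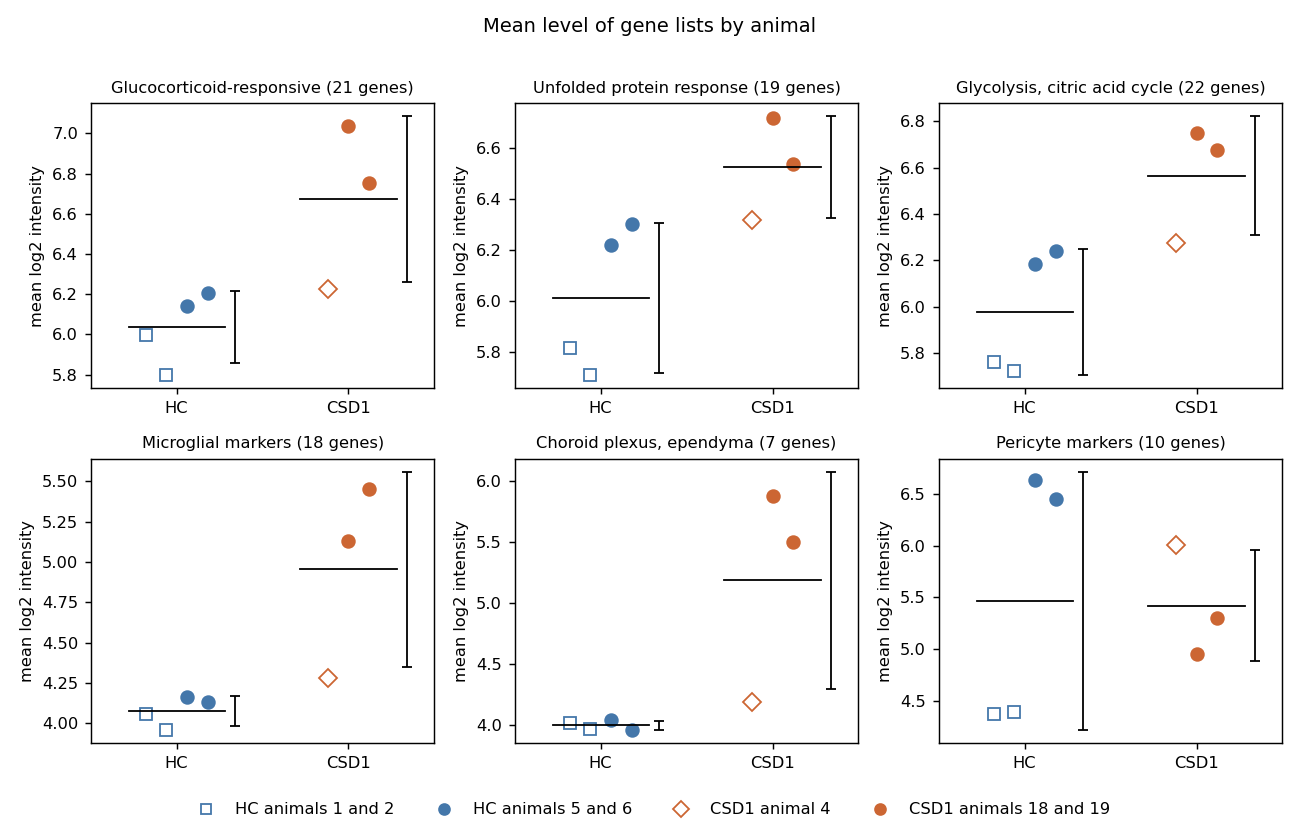
Mean log2 intensity of 6 gene lists in each animal; horizontal lines are group means and bars the SD over 4 HC and 3 CSD1 animals. For the first 5 lists CSD1 animal 4 (open diamond) lies next to HC animals 5 and 6 and animals 18 and 19 lie well above, while pericyte markers separate HC animals 1 and 2 (open squares) from animals 5 and 6.

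Falls were few. Of the 17 expressed rows that passed as lower, Gkn3 was the only 1 of a named gene. The other 16 carry a predicted symbol or no single symbol, and their means over the 19 arrays were at most 3.65, near the receptor level of 3.10. The next largest among named genes were Cav3, the muscle caveolin (-0.62), the hair keratin-associated protein Krtap1-5 (-0.62) and Slc10a5 (-0.53), and in CSD1 all 3 lay between 2.11 and 2.67, below the receptor level. For Cav3 the HC levels were 3.24 and 3.82 in animals 1 and 2 but 2.83 and 2.93 in animals 5 and 6, and the difference from the latter was -0.29. Among expressed genes whose groups did not overlap, the falls against animals 5 and 6 that followed Gkn3 were Gcnt4, a glycosyltransferase (-0.37; HC 3.75 to 3.92; CSD1 3.30 to 3.5), Twist1, a mesenchymal transcription factor (-0.31), and Hcar2, a receptor for ketone bodies and niacin (-0.24). None of these 3 passed against 4 HC animals (adjusted p = 0.069, 0.069 and 0.15). The corresponding rises against animals 5 and 6 added Stoml3 (1.90; HC 3.22 to 3.92; CSD1 4.14, 5.89 and 6.71), Ecrg4 (1.60; HC 3.40 to 4.28; CSD1 4.31, 6.54 and 6.16) and the microglial receptor Csf1r (1.37) to those already given, and these did not pass against 4 HC animals either.

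Among the remaining genes chosen by size, Emp1, an epithelial membrane protein, rose by 1.21 (HC 6.04 to 6.37; CSD1 6.65, 8.18 and 7.42; adjusted p = 0.027), and 1.06 of this remained against animals 5 and 6. Tnfrsf12a, the receptor of the cytokine TWEAK, rose by 1.18 (HC 4.19 to 5.49; CSD1 5.51, 6.34 and 6.06), with animal 4 next to HC animal 6. Lcat, which esterifies cholesterol in lipoproteins (1.23), Tom1, an endosomal adaptor (1.20), and the transcription factor Tcf23 (1.11) rose too. For Tom1 the difference from animals 5 and 6 was 0.63, since HC animals 1 and 2 read 4.69 and 4.73 and animals 5 and 6 read 5.85 and 5.86.

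Set against the mean of the 3 longer stress groups, a comparison in which HC arrays enter only the estimate of the spread, no row passed in limma (smallest adjusted p = 0.090; 1264 higher and 756 lower at unadjusted p under 0.05, 1.92% and 1.15% of rows). The lowest p belonged to Gkn3, with a difference of -1.66 (log2). Its CSD1 levels of 6.44 to 6.97 lay below every animal of CSD7 (7.37 to 8.60), CSD14 (7.81 to 8.92) and CSDrec (8.62 to 9.14). Scgb3a1 was higher by 2.18 and was next in order of p, but CSD1 animal 4 (5.53) lay within CSD7 (5.24 to 5.79) and CSD14 (5.16 to 5.73). Serpina3n and Lrg1 reached 7.11 and 6.90 in CSD1 animal 18 and up to 5.64 and 5.27 after longer defeat. In CSD1 animal 4 Serpina3n (3.37) lay below the lowest animals of CSD7 (3.45), CSD14 (3.47) and CSDrec (3.39). Lrg1 in that animal (4.07) lay within CSD7 (3.93 to 4.66). Angptl4 and Ch25h were at like means in CSD1 (6.78 and 7.46), CSD7 (6.67 and 7.17) and CSD14 (6.5 and 7.15), and the SD was wider in CSD1 (0.93 and 2.19) than in CSD7 (0.35 and 0.22).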

How the data were processed

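The deposited values are log2 intensities made by the authors, according to the methods with RMA background correction, quantile normalization and median polish in Partek Genomics Suite, on Clariom D mouse arrays. The labels name Affymetrix Expression Console and another array type. No source used here names a genome build for the arrays. No scaling was added. Of 72688 rows, 6732 control rows were left out and 65956 tested; 30638 carry 1 gene symbol in the array's annotation, 2176 several and 33142 none. No column belonged to other samples.

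Groups came from titles. Each row was fitted with limma over 19 arrays in 5 groups (14 residual and 3.60 prior degrees of freedom), with Benjamini-Hochberg adjustment over all rows and a threshold of 0.05. A second fit left out HC animals 1 and 2 (17 arrays), and CSD1 was also set against the mean of the other stress groups. Replicates are separate animals, and no array pair was identical. The number of arrays limits precision.

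The members and lists were chosen with earlier results of these data known. The lists have 708 entries, of which 634 had a row naming no other gene; of several such rows the one with the highest mean was taken. Named genes are the 15 largest rises and 15 largest falls that passed without overlap of the groups. Added to these are the 10 largest rises and falls against HC animals 5 and 6 among expressed rows without overlap. Up to 4 members of each list, and genes taken from those the study's text names, were added too. List members given beyond these were named after their values were seen. List counts and medians are descriptions without a test. Promoters and gene names come from RefSeq (GRCm38.p6), and motifs were searched on both strands. Alternatives changed the scaling, the samples, the weights, the moderation, the rows and a label number covariate. R 4.3.3, limma 3.58.1, data.table (version 1.17.8), Python 3.11.15, numpy 2.4.6, pandas 2.3.3 and matplotlib 3.10.9 were used.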

Additional observations from a re-analysis of the deposited data

Results flagged for a closer look

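In 7 of the 164 genes examined, 1 of the 4 HC animals stood apart from the other three by Dixon's ratio (its gap to the nearest animal over the range of the group), whose critical value is 0.829 for 4 samples. Chance alone gives about 1 in 20. C1qb (ratio 0.908) was highest in HC animal 5, at log2 5.22 against 4.89 to 4.92. Plvap (0.878) was lowest in HC animal 5, at 5.90 against 6.42 to 6.5. Txnip (0.915) was highest in HC animal 1, at 10.01 against 9.64 to 9.67, and Rpl8 (0.849) lowest there, at 7.93 against 8.24 to 8.30. HC animal 2 was lowest for Cxcl2 (0.849; 2.71 against 3.0 to 3.06) and Per1 (0.847; 6.99 against 7.33 to 7.39), and highest for Ms4a1 (0.878; 3.03 against 2.60 to 2.65). CSD1, with 3 animals, was not examined in this way.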

How the results depend on the processing

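No paired analysis was possible, because the label numbers are unique to each array and hold no pairing. By the methods, each collection day included animals of several conditions, but the titles do not give the day. The counts of rows against HC, 3852 higher and 633 lower, moved by over 1.5 times under every alternative except leaving out CSD1 replicate 4 (4387 and 430). There were 0 and 0 with every array set to 1 distribution and with only the HC and CSD1 arrays fitted. The same counts came with HC animals 5 and 6 as the only controls and with the label number as a covariate. Without moderation of the contrast of CSD1 and HC there were also 0 and 0. The study's ANOVA ran across all groups in other software, so its result cannot be set beside this one. Arrays centred on the median of expressed rows gave 1751 and 17695, array weights 6633 and 3856, a trend in eBayes 1618 and 398, and only rows above the receptor level 5791 and 48. Leaving out 1 animal at a time gave 0 to 11302 higher and 0 to 5324 lower. HC animals 5 and 6 without CSD1 animal 4, chosen after seeing the data, gave 1228 and 84. The median difference of expressed rows turned to -0.028 with centred arrays. The cause of these changes was not tested.

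Against HC animals 5 and 6, where 0 rows passed, array weights gave 4471 higher and 2285 lower, and leaving out 1 animal gave 0 to 1228 higher and 0 to 84 lower, the highest counts being those without CSD1 animal 4. Against the other stress groups array weights gave 6078 and 8448. There, 1 distribution gave 2 lower, centred arrays and rows above the receptor level 1 lower each, the covariate 2 higher, and leaving out 1 animal up to 5 higher.

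Some small differences from HC changed sign. With 1 distribution these were Pltp (-0.038), Kdr (-0.081), Per1 (-0.041), Amotl2 (-0.020), Icam2 (-0.012), Myl9 (-0.086) and Igf2 (-0.013), and the medians of the clock (-0.041), YAP (-0.023), interferon (-0.031), Wnt (-0.038), ribosomal protein (-0.18) and monocyte and neutrophil (-0.0091) lists. Centred arrays turned Pltp (-0.15), Tek (-0.030), Cxcl2 (-0.094), Kdr (-0.084), Cd3e (-0.070) and Ccl12 (-0.24), and the medians of the ribosomal protein (-0.045), border macrophage (-0.088), neuron (-0.16), monocyte and neutrophil (-0.12) and lymphocyte (-0.20) lists. Against HC animals 5 and 6 the same held for Pltp (-1.7e-05), Myl9 (-0.78), Igf2 (-0.12) and Ppbp (-0.26), and the medians of the lymphocyte (-0.017) and red cell and platelet (-0.046) lists. Array weights turned Cxcl2 (-0.018), Myl9 (-0.56), Igf2 (-0.081) and Ppbp (-0.50), and the medians of the lymphocyte (-0.054) and red cell and platelet (-0.081) lists. The covariate turned Tmem200a (0.015), Tek (-0.00024), Ccl24 (0.15), Kcnj8 (0.21), Ccl2 (0.18) and Atp13a5 (0.095). HC animals 5 and 6 without CSD1 animal 4 turned Pltp (-0.051), Myl9 (-0.86), Igf2 (-0.062) and Ppbp (-0.29), and the medians of the clock (-0.015), interferon (-0.0052), neuron (-0.024), lymphocyte (-0.045) and red cell and platelet (-0.11) lists. Leaving out 1 animal at a time gave ranges that crossed 0 for lymphocyte (-0.023 to 0.10), monocyte and neutrophil (-0.092 to 0.15), Atp13a5 (-0.85 to 0.30), Ccl12 (-0.082 to 0.12), Ccl2 (-0.051 to 0.016), Ccl24 (-0.10 to 0.047), Kcnj8 (-0.67 to 0.099) and Myl9 (-0.023 to 0.81), of which the first 2 are list medians.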
